A study of Mus musculus with 2 samples.

Results

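The genes described here are 46 members of the TGF-beta, activin and BMP pathway, profiled in spleens of mice with 2 Agilent one-colour arrays. They were chosen by symbol as ligands, receptors, latency proteins, Smads, intracellular restraints, antagonists and targets, and were found through the RefSeq accession that the scanner files give for each probe. They are 46 of 20649 named symbols on the array. Of the 46, 45 were measured, meaning that the probe used was well above background, and it was so on both arrays in all 45. The exception was Bambi, a decoy receptor, whose only probe was not well above background in either pool.

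The first array held RNA of spleens given phosphate-buffered saline (PBS), the control, and the second RNA of spleens remodelled with silica (SiO2). Each was a pool of 5 spleens of female mice, harvested 19 days after the first injection; strain, age and genotype are unstated in the labels. The comparison asks how the remodelled spleen differs from the control spleen. There was 1 array a group, so no test between animals could be made, array and treatment cannot be told apart, and every value below describes these pools.

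The members encode a signalling system in which secreted dimers of the TGF-beta, activin and BMP families bring together type I and type II receptors. The receptors phosphorylate Smad proteins, which join Smad4 and enter the nucleus. TGF-beta is secreted in a latent form and held by binding proteins until it is activated, and it is known in scarring tissue as a driver of matrix production by fibroblasts. BMPs act on Smad1 and Smad5 through receptors partly shared with activins, and the Id genes are textbook targets of that branch. Several products, Smad6 and Smad7 among them, are induced by the pathway and restrain it.

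All differences are log2 signal in the SiO2 pool minus log2 signal in the PBS pool, after each array was scaled to its own 75th percentile (670 signal units in PBS, 469 in SiO2). Levels are given as a percentage of that 75th percentile. Because probes differ in brightness, a gene's level was compared only with the level of the same probe in the other pool. The error given beside a difference is the scanner software's own estimate for the spots. It had a median of 0.204 log2 over the 45 members (0.204 to 0.315), and it does not cover animals, labelling or hybridisation. As an estimate per spot, it was not reduced for probes with repeat spots, and it is not the scatter among spots. That scatter was smaller, with a median SD of the difference of 0.089 over 307 repeated probes. Markers of spleen cells were looked at first. All 9 B cell markers, 7 of 8 T cell markers and all 8 red pulp macrophage markers were well above background. The eighth T cell marker, Trac, had no named probe. Of all named symbols, 16774 of 20649 passed the same filter, so this is only a weak check of the spleen label. Cell type markers differed widely between the pools. All 10 measured mesothelial markers were lower, with a median difference of -3.66 (4 of the 10 are bounds) that was -1.11 under normexp, and all 9 erythroid markers (median 1.82) and all 9 neutrophil markers (median 2.35) were higher. In whole tissue, fewer cells of a type and less RNA per cell cannot be told apart.

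Most of the measured members lay a little lower in the SiO2 pool on this scale, and few differed by 2-fold. Of the 45, 31 were lower and 14 higher, with a median of -0.32, where all 16774 named genes had a median of 0.03 and 47.7% were lower. Only Inhba was at least 2-fold higher, which is 2.22% of members against 6.62% of all named genes. Smad6 and Id2 were at least 2-fold lower, which is 4.44% of members against 3.7% of all genes, so neither count stands apart from the background. At 1.5-fold the sides were unequal. There, 14 members (31.1%) were lower against 12.3% of all genes, and 4 (8.89%) were higher against 16% of all genes. The remaining 27 were within 1.5-fold. The difference was at least 2 times its spot error in 24 of 45 members. The same share over all genes is not given. Of all genes, 20.2% lay at or below -0.4 and 75.4% at or below 0.4, so this count is not read as a trait of the members.

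The sign of that shift rests on the scaling. B and T cell markers were themselves lower by a median of 0.39 on this scale. With the SiO2 array shifted to bring them to 0, an alternative chosen after seeing the data, the member median was 0.069 with 18 members below 0, while the median of all genes became 0.42. At 1.5-fold, 2 of 45 members were then lower against 3.93% of all genes, so the lower side was near the background. On the higher side, 8 of 45 were higher against 38% of all genes. Relative to the median of all genes, members stood 0.35 lower and 31 of 45 lay below it, which such a shift leaves as it is by construction. Under normexp, a background correction with an added offset, 8 members were at least 1.5-fold lower against 6.74% of all genes. The median of all genes was then 0.18, and 35.9% of them lay below 0. Normexp did not only shrink the differences of dim probes. Inhba went from 1.44 to 0.70 and Bmp6 from -0.96 to -0.11, but Ski went from 0.13 to 0.40. Smurf1 (-0.29 to 0.20) and Fst (-0.37 to 0.11) crossed 0. A change of sign under normexp is therefore not read as shrinkage toward 0. Of all genes at least 2-fold different, 64.2% were higher with the 75th percentile and 90.8% with B and T cell markers at 0. Under every one of the 10 alternatives that gave a value for them, 29 members kept their sign, 18 of them lower and 11 higher. The alternatives moved the median of all genes by between -0.07 and 0.39. The same count over all genes is not given, so this one describes single members and not the group.

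**Figure D1:**
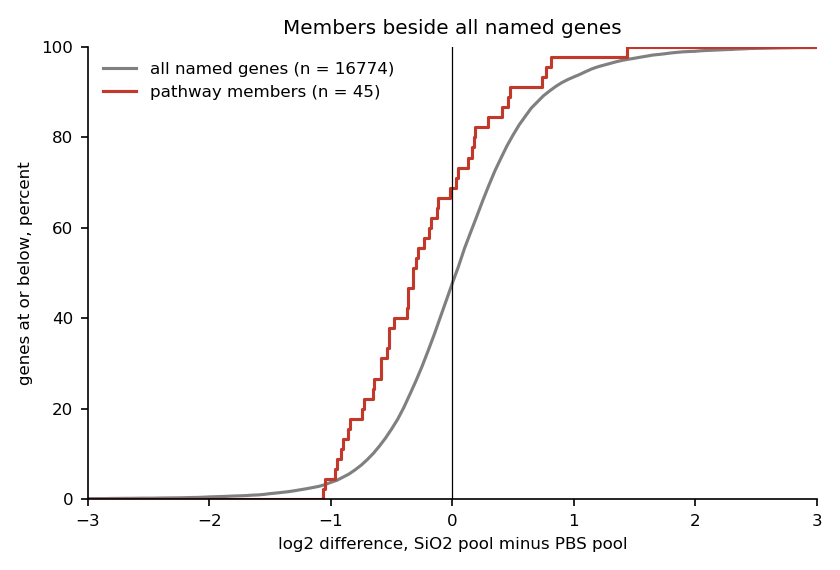
Cumulative share of genes (vertical axis, percent) at or below each log2 difference between the SiO2 and PBS pools (horizontal axis), for the 45 measured pathway members (red steps) and all 16774 named genes (grey line). The red steps lie to the left of the grey line over most of the range, with medians of -0.32 and 0.03, and meet it near a difference of -1.

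Among the ligands, 7 of 9 were lower and 2 higher, with a median of -0.30, or -0.11 under normexp. Inhba, which encodes the beta A subunit of activin, had a level of 2.59% of the 75th percentile in the PBS pool and 7.02% in the SiO2 pool, a difference of 1.44 ± 0.25 (spot error) or 2.71-fold. Its probe, A_51_P239750, was dim on both arrays, with unscaled signals of 17.3 and 33.0. Under normexp the difference was 0.70. Inhbb, the beta B subunit of activin, went the other way, from 32.6% in PBS to 19.5% in SiO2 (-0.74 ± 0.21). The activin subunit genes thus lay on opposite sides of 0, under all 10 alternatives as well.

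The TGF-beta genes themselves were not higher in the SiO2 pool. Tgfb1, the main form in immune cells and platelets, was at 19.4% in PBS and 15.8% in SiO2, a difference of -0.30 ± 0.21. Its probe had 10 spots on each array, with an SD of log2 signal of 0.038 in PBS and 0.037 in SiO2. Tgfb3, also with 10 spots, was at 50.4% and 49.7%, a difference of -0.02 ± 0.20, and its spots had SDs of 0.027 and 0.038. The difference for Tgfb1 was 1.46 times the software's spot error, which was not reduced for the 10 spots, and that for Tgfb3 lay within its own. Both changed sign with B and T cell markers centred on 0 (0.09 and 0.37). Tgfb2 was lower by both of its probes, at 11.5% and 6.18% for the brighter one (-0.90 ± 0.22) and -1.09 for the other. Under normexp the brighter probe was at -0.21.

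The BMP ligands were lower to different degrees. Bmp6, which is made by endothelial cells and regulates iron in the liver, was at 8.68% in PBS and 4.45% in SiO2 (-0.96 ± 0.22), or 1.95-fold lower, and at -0.11 under normexp. Bmp2 differed by -0.52 ± 0.21. Bmp4, a ligand that patterns many tissues and is antagonised by noggin and gremlin, was at 157% and 144% (-0.12 ± 0.20), which is within the spot error. Gdf15, a distant family member induced by cell stress, was at 122% and 162% (0.41 ± 0.20).

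**Figure D2:**
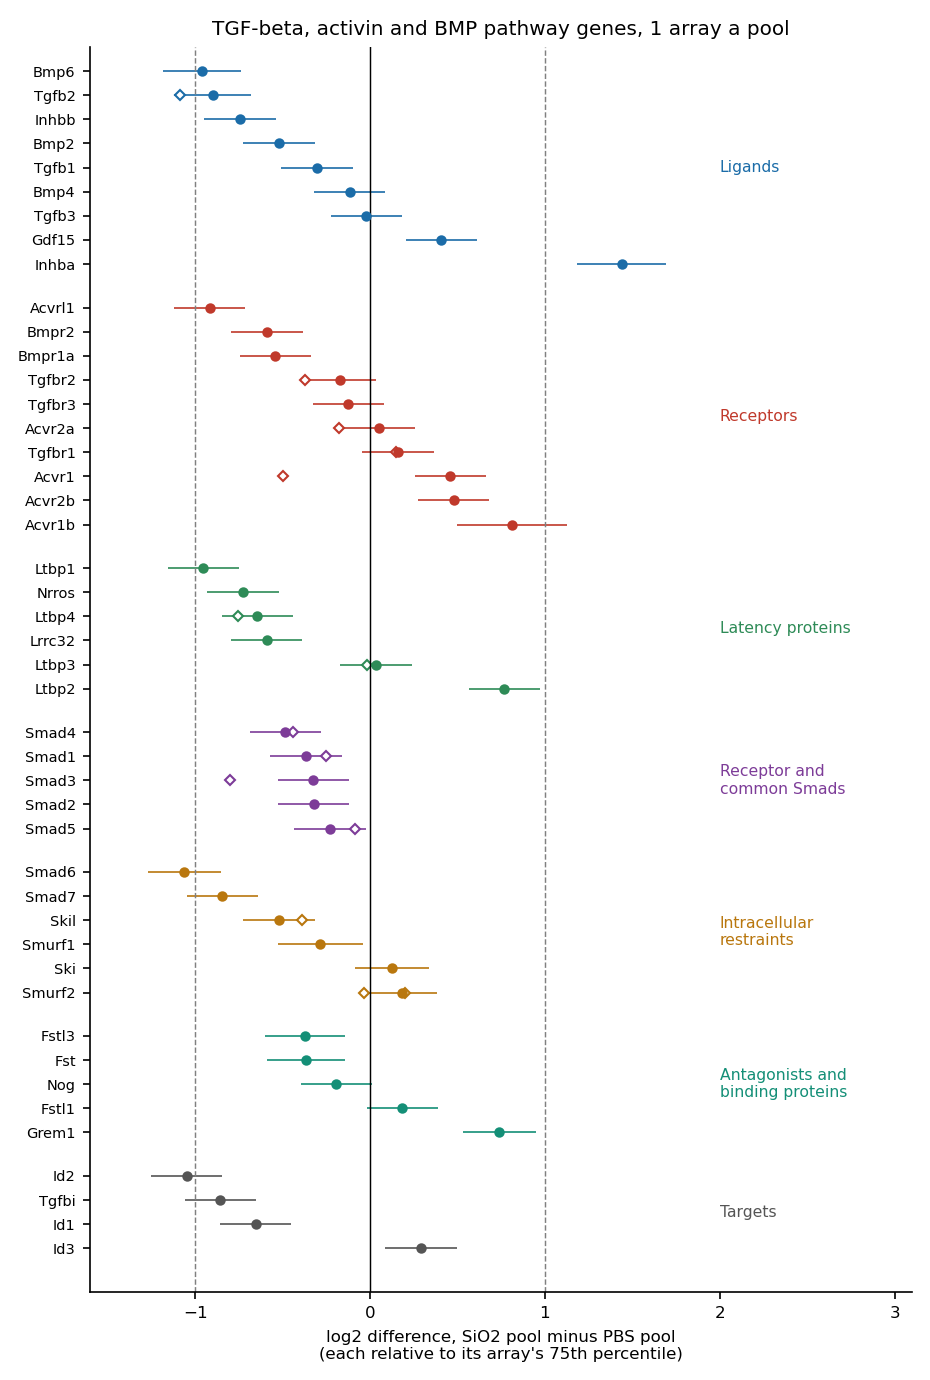
Log2 difference between the SiO2 and PBS pools (horizontal axis) for the 45 measured members, grouped by role. Filled points are the brightest probe with the scanner software's spot error, open diamonds are further probes of the gene, and dashed lines mark 2-fold; Inhba (1.44), Smad6 (-1.06) and Id2 (-1.05) lie beyond them, and all 5 receptor and common Smads lie between -0.48 and -0.23.

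The receptors lay on both sides of 0. Of the 10, 5 were lower and 5 higher, with a median of -0.04. In the authors' deposited values 7 were lower, with a median of -0.29, and with the mean over probes 7 were lower, with a median of -0.09. The even count includes Acvr1 and Acvr2a as higher, and the probes of each disagree in sign. Of the 4 grouped here as BMP receptors, 3 were lower, with a median of -0.57 that includes Acvr1. This grouping leaves out Acvr2a and Acvr2b, type II receptors that BMPs share with activins. Acvrl1, the type I receptor of endothelial cells, was at 98% in PBS and 51.8% in SiO2 (-0.92 ± 0.20). The type II receptor Bmpr2 went from 18.5% to 12.3% (-0.59 ± 0.21), and the type I receptor Bmpr1a from 69.2% to 47.6% (-0.54 ± 0.20). The probes of the fourth, Acvr1, disagreed. The brighter gave 0.46 and the other -0.50, so no direction is given for this gene.

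The 6 receptors grouped here as those of TGF-beta and activin had a median of 0.10, and 4 were higher, though 4 of the 6 lay within their spot error. The ligand-binding Tgfbr2 differed by -0.17 and its partner Tgfbr1 by 0.16, both within the spot error of 0.20. The co-receptor Tgfbr3 was at -0.12 ± 0.20. Acvr2b, a type II activin receptor, was at 1320% in PBS and 1830% in SiO2 (0.48 ± 0.20), and Acvr2a was at 0.05 ± 0.21, with -0.18 from its other probe and the same sign in 6 of 10 alternatives. Acvr1b, the type I receptor of activin, was at 1.92% and 3.36% (0.81 ± 0.32). Its unscaled signals of 12.8 and 15.8 were close to background, and normexp gave 0.51. The difference between the groups was not tested, since genes are not replicates. The groups are also not clean branches, because Acvr2a and Acvr2b serve BMPs as well.

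Endothelial markers lay on both sides of 0. All 11 were above background, 6 of 11 were lower, with a median of -0.06 (0.07 under normexp) and a summed level of 1910% in PBS and 1470% in SiO2. Kdr (-0.90) and Madcam1 (-0.80) were about as much lower as Acvrl1, while Tek (0.42) and Emcn (0.39) were higher. Their part in the Acvrl1 difference was not tested. Eng, the endothelial co-receptor that works with Acvrl1, is itself 1 of the 11 markers and the one at their median. It was at 34.6% and 33.2% (-0.06). Gdf2, which encodes a circulating BMP that binds Acvrl1, had an unscaled signal of 55.2 in PBS and 6.21 in SiO2, the latter not well above background, so it was at least 6.23-fold lower (-2.64 as measured), or at -0.40 under normexp.

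The latency group holds 5 proteins that keep TGF-beta latent and the related Ltbp2. It had the second lowest median of the 7 roles, at -0.62, with 4 of 6 lower and all of these 4 by at least 1.5-fold. That is 66.7% of a group of only 6 genes, against 12.3% of all genes. The rank depended on the setting. In the authors' deposited values the intracellular restraints had a lower median (-0.69) than the latency group (-0.60). Ltbp1, which ties latent TGF-beta to the matrix, was at 122% in PBS and 63.2% in SiO2 (-0.95 ± 0.20). Ltbp4, another such protein, was at 220% and 141% (-0.65 ± 0.20), and its other probe gave -0.76. The membrane anchors were lower as well. Nrros, the anchor on macrophages, was at 1040% and 631% (-0.73 ± 0.20), and Lrrc32, the anchor on regulatory T cells and platelets, at 133% and 88.5% (-0.59 ± 0.20).

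Ltbp2 stood on the other side. This elastic fibre protein does not bind latent TGF-beta, and it was at 87.2% in PBS and 149% in SiO2 (0.77 ± 0.20). Ltbp3 was at 53.1% and 54.3% (0.03). The pattern for Ltbp1, Ltbp4, Nrros and Lrrc32 against Ltbp2 had the same signs under all 10 alternatives, or under 9 for Ltbp1, whose probe was not among the authors' deposited values.

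Markers of the cells known to carry these anchors were mixed. Of 7 measured macrophage markers, 6 were lower, with a median of -0.79 and a summed level of 5830% in PBS and 3030% in SiO2; Cd68 had no named probe. All 8 red pulp macrophage markers were lower (median -0.65, sums of 8300% and 5390%). Adgre1 is in both of these lists. Markers of lipid-laden phagocytes went the other way, with 8 of 8 higher, a median of 2.55 and sums of 2320% and 3740%. Of 6 measured regulatory T cell markers, 5 were lower (median -0.47, or -0.12 under normexp, sums of 407% and 295%), and Gpr83 was not above background. Of 9 platelet markers, 6 were lower and 3 higher (median -0.08, sums of 3580% and 2970%). Their part in the result was not tested.

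**Figure D3:**
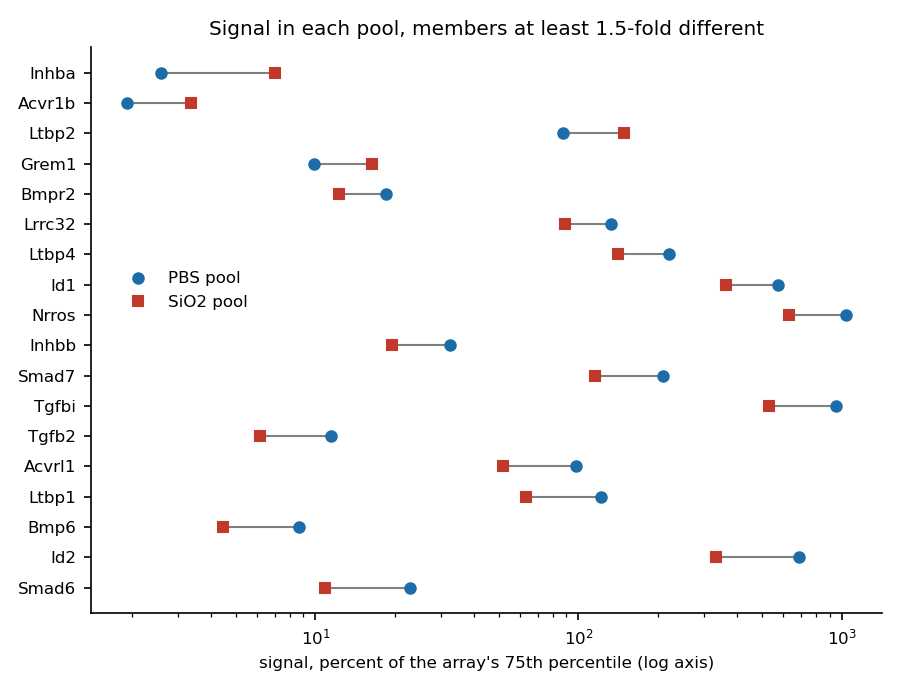
Signal in the PBS pool (blue circles) and the SiO2 pool (red squares) as a percentage of each array's 75th percentile, on a log axis, for the 18 members at least 1.5-fold different. Inhba, Acvr1b, Ltbp2 and Grem1 are higher in the SiO2 pool and the other 14 lower; positions of different genes are not comparable because their probes differ.

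The receptor and common Smads were uniformly and slightly lower. All 5 lay below 0, between -0.48 and -0.23, and none differed by 1.5-fold. Smad3, a carrier of TGF-beta and activin signals, was at 333% in PBS and 265% in SiO2 (-0.32 ± 0.20), and its dimmer probe gave -0.80. Smad2, of the same branch, was at -0.32 ± 0.20. Smad1 and Smad5, the carriers of BMP signals, were at -0.36 ± 0.21 and -0.23 ± 0.20. Smad4, the shared partner, was at 292% and 208% (-0.48 ± 0.20). With B and T cell markers centred on 0 only Smad4 remained below 0.

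Of the 6 proteins that restrain signalling inside the cell, 4 were lower (median -0.40, or -0.16 under normexp). The inhibitory Smads showed the larger gaps. Smad6, which mainly blocks BMP signals, was at 22.8% in PBS and 10.9% in SiO2, a difference of -1.06 ± 0.21 or 2.09-fold (probe A_55_P2129658), and at -0.53 under normexp. Smad7, which blocks both branches, was at 209% and 116% (-0.84 ± 0.20). Skil, a Smad co-repressor that TGF-beta induces, was at 271% and 189% (-0.52); the SD of log2 signal among its spots was 0.082 in PBS (10 spots) and 0.045 in SiO2 (9 spots). The related co-repressor Ski (0.13) and the ubiquitin ligases Smurf1 (-0.29) and Smurf2 (0.18) were within 1.5-fold. Smurf1 was at 0.20 under normexp, close to the median of all genes there, 0.18.

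Of the 5 measured antagonists and binding proteins outside the cell, 3 were lower (median -0.19, or 0.16 under normexp). Relative to the median of all genes, which was 0.18 under normexp, 3 of 5 were lower either way. Grem1, a BMP antagonist of fibroblasts, was at 9.85% in PBS and 16.4% in SiO2 (0.74 ± 0.21). Noggin, Nog, another BMP antagonist, was at -0.19 ± 0.20. The activin-binding follistatins Fst and Fstl3 were both at -0.37 (± 0.23 each). Both were above 0 under normexp (0.11 and 0.16), though below the median of all genes there. Fstl1, a secreted glycoprotein of stromal cells, was at 366% and 416% (0.18 ± 0.20).

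The 4 targets had the lowest median of the 7 roles, at -0.76, with 3 of 4 lower. In the authors' deposited values their median and that of the intracellular restraints were both -0.69. Id2, which encodes a blocker of helix-loop-helix factors needed by natural killer cells and some dendritic cells, was at 689% in PBS and 333% in SiO2, a difference of -1.05 ± 0.20 or 2.07-fold (probe A_52_P240542). It was bright on both arrays and was at -1.03 under normexp. Id1, a BMP target of endothelial and progenitor cells, was at 574% and 365% (-0.65 ± 0.20). Id3 was not lower, at 352% and 430% (0.29 ± 0.20), and it stayed above 0 under all 10 alternatives. Tgfbi, a matrix protein named for its induction by TGF-beta, was at 956% and 528% (-0.86 ± 0.20). Natural killer markers were lower in 7 of 8 cases, with a median of -1.89 (-1.07 under normexp) and sums of 1790% in PBS and 374% in SiO2. All 8 were above background, and their part in the Id2 difference was not tested.

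Promoter sequence is shown for the 3 members that differed by at least 2-fold and for Id3, the Id gene on the other side of 0. Each is the 250 bases before the annotated start from RefSeq (GRCm38.p6), 5′ to 3′ on the gene's strand. The positions are chr13:16011601-16011850 (plus strand) for Inhba, chr9:64022060-64022309 (minus strand) for Smad6, chr12:25096093-25096342 (minus strand) for Id2 and chr4:136143572-136143821 (plus strand) for Id3. Capitals mark matches to GGCGCC, a GC-rich element of BMP Smads, and to CAGAC or its reverse complement GTCTG, the CAGA box of Smad3 and Smad4.
Inhba: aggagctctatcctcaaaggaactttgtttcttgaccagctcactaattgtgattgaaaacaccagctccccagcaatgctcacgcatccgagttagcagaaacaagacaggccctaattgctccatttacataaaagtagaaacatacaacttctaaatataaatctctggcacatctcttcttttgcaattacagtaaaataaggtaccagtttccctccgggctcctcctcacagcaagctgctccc
Smad6: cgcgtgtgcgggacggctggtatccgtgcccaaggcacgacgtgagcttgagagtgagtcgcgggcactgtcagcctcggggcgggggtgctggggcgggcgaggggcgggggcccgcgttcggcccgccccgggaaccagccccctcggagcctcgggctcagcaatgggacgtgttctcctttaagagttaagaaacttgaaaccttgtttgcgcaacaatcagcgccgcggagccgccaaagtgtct
Id2: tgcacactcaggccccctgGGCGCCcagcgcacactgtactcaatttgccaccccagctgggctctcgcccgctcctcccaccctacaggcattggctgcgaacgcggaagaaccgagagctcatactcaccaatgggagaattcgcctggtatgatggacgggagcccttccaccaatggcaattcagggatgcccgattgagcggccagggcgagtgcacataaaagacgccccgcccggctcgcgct
Id3: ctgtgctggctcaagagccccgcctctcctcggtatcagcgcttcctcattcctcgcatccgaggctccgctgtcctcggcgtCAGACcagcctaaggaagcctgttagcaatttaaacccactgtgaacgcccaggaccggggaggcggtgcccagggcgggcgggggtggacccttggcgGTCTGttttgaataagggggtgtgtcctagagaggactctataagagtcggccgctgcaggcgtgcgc
The Id2 window held 1 match to GGCGCC and the Id3 window 2 matches to the CAGA box. Those of Inhba and Smad6 held none, which says only that these letters are not in these windows.

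Over the 33 members with a promoter in the table, 11 of 40 windows (27.5%) held GGCGCC, against 9.59% of all 32851 windows and 12.3% of those of protein-coding genes. The member windows were richer in G and C, with a median of 66.6% against 52.4% over all windows and 55.6% over protein-coding genes, and the part of that in the count was not tested. CAGAC or GTCTG was in 20 of 40 (50%) against 42.2% of all windows. The palindrome GTCTAGAC, which overlaps neither of the others, was in 0 of 40 and in 0.167% of all windows. All were searched on both strands.

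A further 114 genes of the pathway were listed beside the members, of which 99 were measured. Of these 48 were lower and 51 higher, with a median of 0.02, so they lay near the median of all genes; 7 (7.07%) were at least 2-fold higher and 5 (5.05%) at least 2-fold lower, against 6.62% and 3.7% of all genes, so both shares lay near the background. Targets made up 6 of the 7, which is 26.1% of the 23 measured targets against 6.62% of all genes. The 6 were fibroblast matrix genes and a cross-linking enzyme, a group in which earlier results of these data had already shown higher collagen. Lox, which cross-links collagen, was at 3.97% in PBS and 22.6% in SiO2 (2.51, or 1.47 under normexp). Postn was at 2.01, Col3a1 at 1.93, Col1a1 at 1.58, Thbs2 at 1.32 and Col1a2 at 1.05.

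The other targets lay on both sides of 0. Of all 23 measured targets 14 were higher and 9 lower. At 1.5-fold 8 of the 23 were higher and 5 lower, against 16% and 12.3% of all genes. The matrix protein Fn1 (0.73) and the transcription factor Klf10 (0.71) were higher by less than 2-fold. Ccn2, a matricellular protein, was at 263% in PBS and 149% in SiO2 (-0.82 ± 0.20). The contractile genes Acta2 (-0.91) and Tagln (-0.88) were lower by less than 2-fold. Pmepa1, a feedback inhibitor, was at -0.04. Fibroblast markers, 11 of 12 measured, had 3 below 0 and a median of 0.27, with sums of 4910% in PBS and 9540% in SiO2; Ccl21a had no named probe. That list shares Col1a1, Col1a2 and Col3a1 with the targets, and the other 8 measured markers had a median of 0.07 and sums of 2330% and 2040%. These 8 spread widely, from -0.95 to 2.80, with 2 at least 2-fold higher and 3 at least 1.5-fold lower. All 8 smooth muscle markers were below 0, with a median of -0.90 and sums of 2710% and 1440%. That list shares Acta2 and Tagln with the targets, and the other 6 had a median of -0.72 and sums of 968% and 501%. The part of either in the target genes was not tested.

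The genes at least 2-fold lower were, beside Gdf2, the BMP-like ligand Gdf6, at 68.7% and 19.3% (-1.83 ± 0.21, or -1.41 under normexp), the BMP co-receptor Rgmb (-1.43, or -0.46 under normexp) and the proprotein convertase Pcsk6 (-1.84, or -0.89 under normexp). The BMP antagonist Chrdl1 was at least 2.42-fold lower by its brightest probe, which was not above background in the SiO2 pool. Its 3 probes ranged from -2.22 to -0.86, so not all reached 2-fold, and normexp gave 0.23 for Chrdl1. The antagonist Sostdc1 was on the other side, at 1.20 ± 0.23, or 0.70 under normexp. Smad9, a further BMP Smad, was above background in PBS only and at least 1.76-fold lower, but at 0.20 under normexp. The median of all genes under normexp was 0.18. Of the 5, Gdf6 was the only gene at least 2-fold lower under normexp. All 10 mesothelial markers measured were lower, with sums of 629% and 98.7%, and Muc16 had no named probe. The part of the mesothelium in these differences was not tested.

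**Figure D4:**
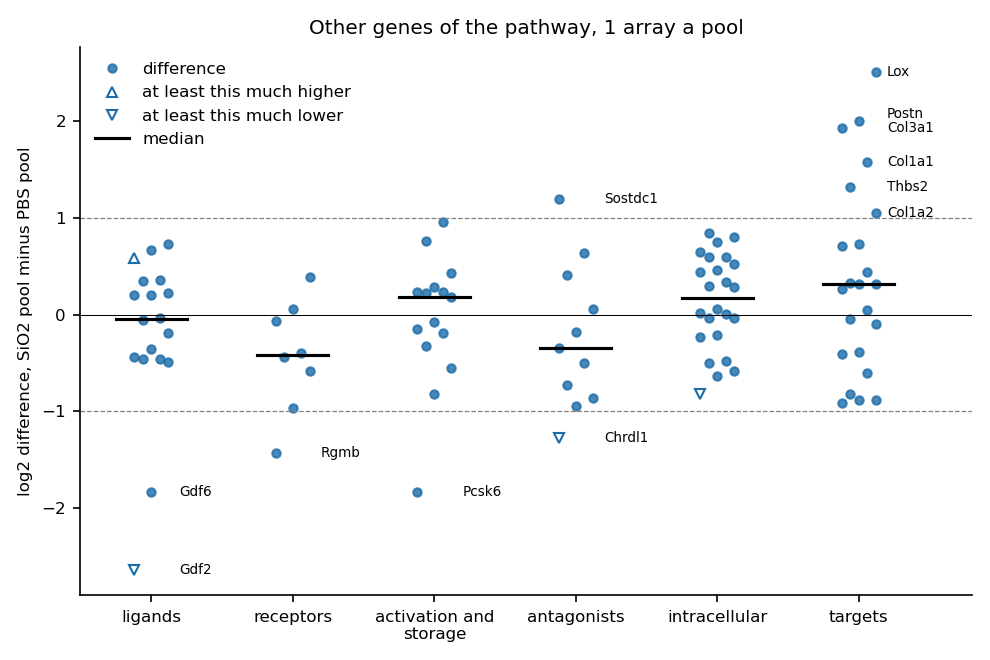
Log2 difference between the SiO2 and PBS pools (vertical axis) for the 99 measured genes of the pathway that are not members, by class, with the class median as a bar and 2-fold as dashed lines. Triangles are bounds for genes above background only on the array where they were higher; the targets reach 2.51 (Lox), and the bound for Gdf2 is lowest at -2.64.

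The 3 members beyond 2-fold moved with the processing by different amounts. Inhba was the highest member in the reported values and ranged from 0.70 to 1.83 in the alternatives, where Ltbp2 lay above it under normexp (0.71). Smad6 ranged from -1.14 to -0.53. Id2 ranged from -1.12 to -0.66 over 9 alternatives, since its probe was not among the authors' deposited values. Normexp brought Smad6, Bmp6 and Tgfb2 closer to 0, while it left the brighter Id2 (-1.03), Tgfbi (-0.90) and Nrros (-0.83) as far from 0 or nearly so.

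**Figure D5:**
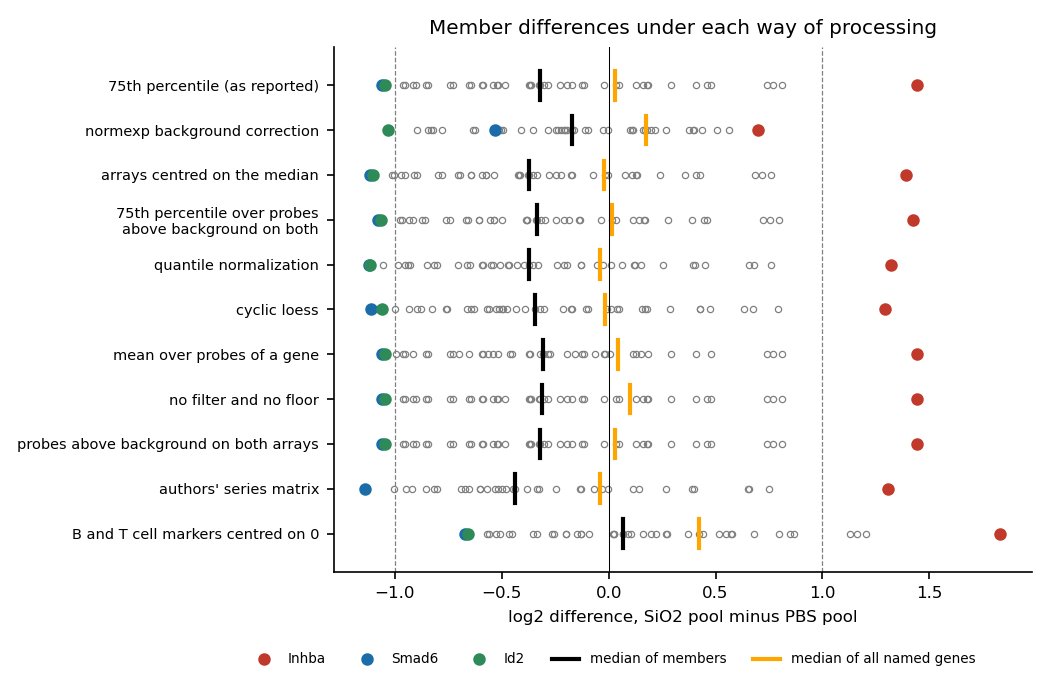
Log2 differences of the members (horizontal axis) under the reported scaling and 10 alternatives (rows), with Inhba, Smad6 and Id2 in colour, other members as open circles, and bars for the medians of members and of all named genes. The black bar lies left of the orange bar in every row, and lies right of 0 only with B and T cell markers centred on 0.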

How the data were processed

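Each pool was hybridised to 1 Agilent array after Cy3 labelling, per the labels' protocols. These also state a blood RNA kit and globin reduction. The deposited scanner files hold linear intensities, background-subtracted by Agilent Feature Extraction, whose version is 11.0.1.1 per the file headers and 9.1 per the submitters' processing notes. The series matrix deposited by the authors is on the log2 scale, with a slope of 0.994 (PBS) and 1.01 (SiO2) against the scanner log2 signal and medians of 5.69 in both columns; their normalisation is unstated in the labels and headers. It covered 46 of the 61 member probes.

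Of 43020 spots that were not controls, 145 (PBS) and 148 (SiO2) outliers were left out, and 75.5% and 74.9% were well above background; no spot was saturated. The processed intensity was taken as log2 minus the array's 75th percentile, and repeat spots were averaged per probe. Gene names came from the probe's accession and the RefSeq table of GRCm38.p6: 27217 of 39398 probes (69.1%) got 1 symbol. Each gene is shown by its brightest probe among those above background on 1 array or both. A value that was not above background and lay under the lowest one that was took that lowest value. A difference is called a bound where the lower side was not above background. The number of arrays limits the precision. Among 307 probes with 8 or more spots, the SD of the difference between arrays from spots had a median of 0.089. With 1 array a group no test was made, and genes were counted at 2-fold and 1.5-fold.

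Members given in full were those at least 1.5-fold different and the brightest of each role, and other pathway genes were named at 2-fold, with Eng, Ccn2, Smad9, Thbs1 and Pmepa1 fixed as well. The members and lists were chosen with earlier results of these data known. 2 further genes of the list are not reported here and are in no count of other pathway genes. Acta2, Tagln, Fn1, Klf10, Kdr, Madcam1, Tek and Emcn were added after their values were seen. Alternatives were normexp (offset 50, limma 3.58.1, on the median spot signal because no mean signal was in the files), other scalings, quantile and cyclic loess normalisation, the mean over probes, other filters and the authors' values. The calculation was tested on simulated data with known changes. R 4.3.3 and Python 3.11.15 were used.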

Additional observations from a re-analysis of the deposited data

How the results depend on the processing

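The count of 1 member at least 2-fold higher, the count of 2 lower and the median of -0.32 were each recomputed under 9 other settings and 1 added after seeing the data. Under normexp 0 members were at least 2-fold higher and 1 lower (Id2), with a median of -0.17, and the median of all genes moved by 0.15. With arrays centred on their medians 4 members were at least 2-fold lower, Bmp6 and Ltbp1 joining Smad6 and Id2. In the authors' deposited values, which covered 37 members, the median was -0.44. There Tgfb2 and Smad6 were the 2 members at least 2-fold lower, and Id2 had no value. With B and T cell markers centred on 0 (the added alternative) 4 members (against 15% of all genes) were at least 2-fold higher and 0 (against 1.52%) lower, and the median was 0.069, by construction a shift of 0.39 for every gene. Under the other alternatives each count was within 1.5 times and the median between -0.37 and -0.31. Dim probes limit Inhba, Acvr1b, Tgfb2 and Bmp6. Leaving out a replicate was not possible with 1 array a group. No paired analysis was possible because each group has 1 array.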

Other observations

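The machinery that activates stored TGF-beta and the enzymes that tune the Smads inside the cell were also measured, beyond the members. Of 15 measured genes of activation and storage, 7 were lower and 8 higher, with a median of 0.18. Thbs1, a platelet and matrix protein that can activate latent TGF-beta, was at 0.18 and the integrin chain Itgav at -0.19. The integrin chain Itgb1 was at 0.76 and the fibrillin Fbn2 at 0.96. Itgb6 and Itgb8, the integrin chains best known for activating TGF-beta, were not well above background in either pool.

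Of 24 measured intracellular regulators, 15 were higher and 9 lower, with a median of 0.17. None was at least 2-fold different in the reported values, where Smad9 is a bound at -0.82. Smad9 was at -1.79 as measured and at 0.20 under normexp. Tab1, which activates the kinase Map3k7, was at 0.85 while Map3k7 itself was at 0.06. The deubiquitinases Usp9x and Usp15 were at 0.80 and 0.75. Fkbp1a, which binds type I receptors, was at -0.64 and the co-repressor Tgif1 at -0.50. Apart from Thbs1 and Smad9, the genes named in these paragraphs were chosen for description after their values were seen.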
